A study of Mus musculus with 2 samples.

Results

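POU factors are DNA-binding proteins named for a POU-specific domain joined to a homeodomain, and 9 of their genes that are known from neurons and neural progenitors were described in the neural tube of mouse embryos. The genes were found by symbol among 43346 annotated genes, and all 9 were present. They were Pou2f1 of class II, Pou3f1, Pou3f2, Pou3f3 and Pou3f4 of class III, Pou4f1, Pou4f2 and Pou4f3 of class IV, and Pou6f1 of class VI. The rule names them by symbol and sets no limit on their levels.

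RNA was sequenced from neural tube, the embryonic precursor of brain and spinal cord, of healthy B6NCrl embryos at day 11.5 of gestation. The assay is titled total RNA-seq, but how the libraries were made is not settled. A single group was sampled as 2 biological replicates, a pool of 109 embryos (replicate 1) and a pool of 88 (replicate 2), each of mixed sex, and each library was made from 10 ng of RNA longer than 200 bases with added spike-in RNAs. No genotype, treatment or age was set against another, and pooled embryos hide the differences between animals.

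The POU-specific domain and the homeodomain each contact part of a short DNA element, of which the octamer ATGCAAAT is the classical form. Class III factors (the Brn1, Brn2, Brn4 and Oct6 proteins) act in dividing neural progenitors and young neurons, often on elements that they share with SOX proteins. Class IV factors (Brn3a, Brn3b and Brn3c) act after the last division in sensory neurons, including those of the ganglia beside the neural tube, the retina and the inner ear. Pou2f1, or Oct1, is found in most cell types.

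The members are shown first by a coding stretch in which the class III genes are much alike. On GRCm38, 60 coding bases around the longest run common to Pou3f1 and Pou3f2 were aligned without gaps, and capitals mark the bases that differ from Pou3f1.
Pou3f1, chr4:124658578-124658637, plus strand: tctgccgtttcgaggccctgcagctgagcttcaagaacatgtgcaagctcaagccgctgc
Pou3f2, chr4:22487144-22487203, minus strand: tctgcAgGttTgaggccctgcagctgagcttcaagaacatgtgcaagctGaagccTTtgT
Pou3f3, chr1:42698215-42698274, plus strand: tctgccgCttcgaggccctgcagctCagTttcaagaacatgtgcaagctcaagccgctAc
Pou3f4, chrX:110815159-110815218, plus strand: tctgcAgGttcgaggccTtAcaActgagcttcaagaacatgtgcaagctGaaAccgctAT

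Within this window Pou3f3 differed from Pou3f1 at 4 bases, Pou3f2 at 7 and Pou3f4 at 9. The window was chosen on Pou3f1 and Pou3f2, so 38 of its bases match in that pair by choice. Over whole leading coding transcripts, the longest identical run was 23 to 71 bases (median 29) in the 9 pairs of members of the same class. It was 11 to 23 bases (median 17) in the 27 pairs from different classes. The longest, 71 bases, was between Pou4f1 and Pou4f2. Windows of 100 bases from these transcripts were also searched for in the transcripts of all other genes. Between the members' leading transcripts none could match, as the longest run was 71 bases, and shorter shared stretches were not counted. No window from 8 of the members occurred in a transcript of another gene. The exception was Pou3f1, with 6.19% of its 3750 windows also in Gm2164, an antisense transcript that overlaps it. Gm2164 held 1.05 expected counts in replicate 1 and 1.06 in replicate 2, against 862.95 and 914.94 for Pou3f1.

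The second sequence bears on how the level of Pou4f1 is read. Pou4f1 (chr14:104461676-104467999, minus strand) has a protein-coding transcript of 4445 bases in 3 exons and a shorter one, Pou4f1-202, of 799 bases in 2 exons, which GENCODE annotates as a processed transcript with no reading frame. The first exon of Pou4f1-202 is 227 bases that lie in an intron of the coding transcript. It is shown whole, in lower case, as no base is singled out.
Pou4f1-202 first exon, chr14:104465139-104465365, minus strand: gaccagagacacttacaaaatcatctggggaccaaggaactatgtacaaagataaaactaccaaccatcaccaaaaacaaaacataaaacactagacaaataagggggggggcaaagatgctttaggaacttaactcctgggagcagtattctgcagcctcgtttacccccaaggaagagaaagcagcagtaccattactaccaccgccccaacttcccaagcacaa

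The other 572 bases of Pou4f1-202 (104463973 to 104464544) are shared with the last exon of the coding transcript, outside the coding sequence. Reads from that stretch match both transcripts, so the authors' estimate had to divide them.

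All 9 members were detected, taken here as at least 1 TPM in both libraries. TPM is a level per length of transcript scaled to a common total. By the same rule 33.0% of all genes and 59.9% of protein-coding genes were detected. The lowest value of a member in any library was 2.10 and the highest 76.1 TPM. In bulk tissue, fewer cells with an RNA and less of it per cell cannot be told apart.

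**Figure D1:**
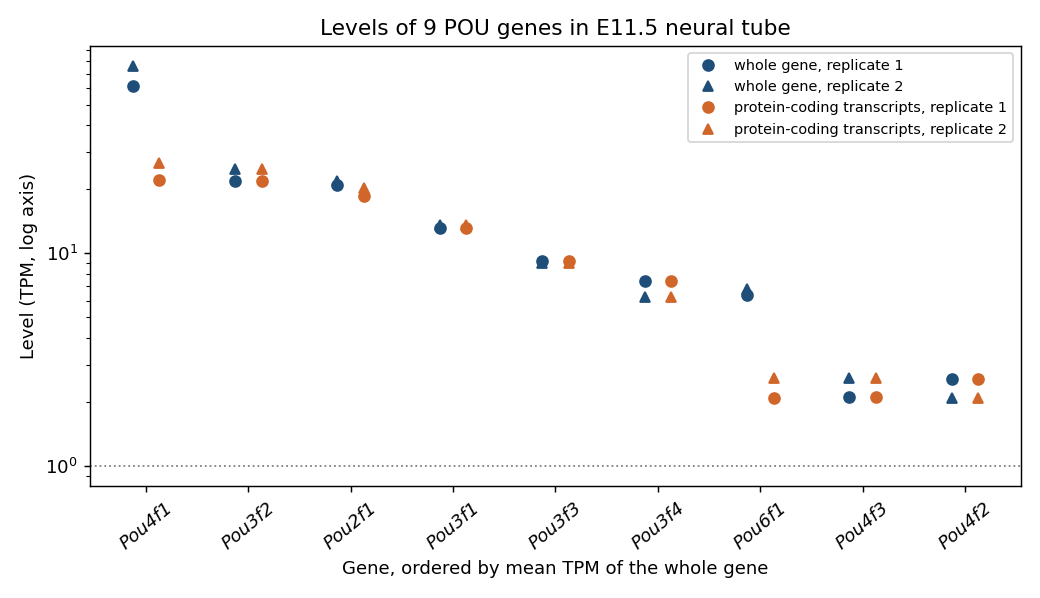
TPM of the 9 members on a log axis, with circles for replicate 1 and triangles for replicate 2. Blue points are the whole gene and orange points its protein-coding transcripts alone. The dotted line marks 1 TPM. Pou4f1 and Pou6f1 drop on the second scale, while the 6 genes with 1 transcript have the same value on both.

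Pou4f1 was the highest member. Its protein, Brn3a, marks sensory ganglion neurons and some dorsal interneurons. The gene held 61.4 TPM in replicate 1 and 76.1 TPM in replicate 2 (68.8 ± 10.4, SD, n = 2), from 2157 and 2690 expected counts. It lay above 94.3% of all genes and 89.1% of protein-coding genes by mean TPM.

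Most of that level belonged to Pou4f1-202. The short transcript held 39.2 TPM in replicate 1 and 49.6 TPM in replicate 2, which was 63.8% and 65.2% of the gene. It did so with 477.48 and 623.3 expected counts, or 22.1% and 23.2% of the counts of the gene. The coding transcript held 22.2 TPM in replicate 1 and 26.5 TPM in replicate 2 (24.4 ± 3.03, n = 2) from 1679.52 and 2066.7 counts. The short model thus weighed heavily because TPM divides by length, and the order of the genes turned on it. Against Pou3f2, Pou4f1 was 2.80 times as high in replicate 1 and 3.07 times in replicate 2 by gene TPM. The ratio was 1.01 and 1.07 for protein-coding transcripts and 1.03 and 1.10 for expected counts.

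The other class IV genes were the lowest members. Pou4f3, for Brn3c of inner ear hair cells and some sensory neurons, held 2.11 TPM in replicate 1 and 2.61 TPM in replicate 2 (2.36 ± 0.354) from 83 and 106 counts (chr18:42394539-42397249, plus strand). Pou4f2, for Brn3b of retinal ganglion cells and some sensory neurons, held 2.57 TPM in replicate 1 and 2.10 TPM in replicate 2 (2.34 ± 0.332) from 139 and 117 counts (chr8:78433010-78436645, minus strand). The order of these genes differed between the libraries. By protein-coding transcripts Pou4f1 was 10.5 and 10.1 times as high as Pou4f3 in replicates 1 and 2, and 8.64 and 12.6 times as high as Pou4f2. Both lay above about 70% of all genes but below the middle of protein-coding genes, at the 44.8th percentile for Pou4f3 and the 44.7th for Pou4f2.

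The class III genes formed a graded series from 6.26 to 24.8 TPM, each from a single exon and 1 transcript model. Pou3f2, for Brn2, was the highest of them, with 21.9 TPM in replicate 1 and 24.8 TPM in replicate 2 (23.4 ± 2.04) from 2094 and 2444 counts (chr4:22482780-22488366, minus strand). Pou3f1, for Oct6 of early neural and Schwann cells, held 13.2 TPM in replicate 1 and 13.6 TPM in replicate 2 (13.4 ± 0.255; chr4:124656807-124660655, plus strand). The 2 libraries lay closer together for Pou3f1 than for Pou3f2.

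Pou3f3, for Brn1 of cortex, spinal cord and kidney, held 9.24 TPM in replicate 1 and 9.01 TPM in replicate 2 (9.13 ± 0.163; chr1:42695768-42703176, plus strand). It had more counts than Pou3f1, 1175 in replicate 1 and 1182 in replicate 2, but on a transcript of 7409 bases against 3849. Pou3f4, for Brn4 of neural tube and inner ear, held 7.46 TPM in replicate 1 and 6.26 TPM in replicate 2 (6.86 ± 0.849) from 367 and 318 counts (chrX:110814280-110817207, plus strand). The 4 class III genes did not overlap each other in any library: Pou3f2 was 2.37 and 2.75 times Pou3f3 in replicates 1 and 2, and 2.94 and 3.96 times Pou3f4.

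Pou2f1, for the widely expressed Oct1, held 20.9 TPM in replicate 1 and 21.8 TPM in replicate 2 (21.4 ± 0.658) from 1048.74 and 1106.69 counts (chr1:165865154-166002678, minus strand). By gene TPM Pou3f2 lay above it by a ratio of 1.05 in replicate 1 and 1.14 in replicate 2. The posterior mean TPM, a second estimate that the authors deposited, turned this round. It put Pou2f1 at 23.8 and 25.3 TPM in replicates 1 and 2 and Pou3f2 at 21.2 and 24.0 TPM. Pou3f2 was the higher by protein-coding transcripts, with ratios of 1.17 and 1.23 in replicates 1 and 2. It was also the higher by expected counts, which are not divided by length, with 2.00 and 2.21. The order of these genes thus depended on the scale and was not settled. Pou6f1, for the class VI factor Brn5 of the nervous system, held 6.40 TPM in replicate 1 and 6.83 TPM in replicate 2 (6.62 ± 0.304) from 359.12 and 398.69 counts (chr15:100575318-100599984, minus strand). Its values lay between those of Pou3f4, and these genes could not be ordered.

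In the whole order by gene TPM, 6 of 8 neighbouring pairs did not overlap, the lower library of the higher gene lying above the higher library of the next. The exceptions were Pou3f4 with Pou6f1 and Pou4f3 with Pou4f2. Of the 6, Pou3f2 over Pou2f1 rested on 21.93 against 21.84 TPM and did not hold in posterior mean TPM. By protein-coding transcripts 5 of 8 pairs did not overlap: Pou4f1 and Pou3f2 could no longer be ordered, nor could Pou4f3, Pou6f1 and Pou4f2.

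Pou6f1 and Pou2f1 were the other members with several transcripts, 10 and 18 models. Protein-coding models made up only 32.8% of Pou6f1 in replicate 1 and 38.0% in replicate 2 by TPM, at 2.10 and 2.59 TPM. The leading transcript by mean share, a processed transcript of 764 bases, took 27.0% and 29.6% from only 19.97 and 24.14 counts. A transcript with a retained intron took 30.0% in replicate 1 and 24.1% in replicate 2. By protein-coding transcripts Pou6f1 lay beside Pou4f2 and Pou4f3.

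Protein-coding models made up 89.3% of Pou2f1 in replicate 1 and 92.6% in replicate 2 by TPM. At 18.7 and 20.2 TPM they lay below the 20.9 and 21.8 TPM of the whole gene. By mean the gene ranked 3 among the members on both scales. Its division among models was unstable. A coding transcript of 2591 bases led with 36.7% and 48.4%, and a fragment of 592 bases followed with 25.1% and 18.8%. In the posterior mean estimate the fragment led with 26.9% in replicate 1 and 23.7% in replicate 2, against 17.2% and 19.9% for the 2591-base transcript. A model of 2679 bases held 13.2% of TPM in replicate 1 and was listed at 0 in replicate 2, and one of 2402 bases was listed at 0 in replicate 1 and held 10.2% in replicate 2. The longest transcript with counts, of 13022 bases, had 455.42 and 429.33 counts, 43.4% and 38.8% of the gene, but 9.69% and 8.47% of its TPM.

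**Figure D2:**
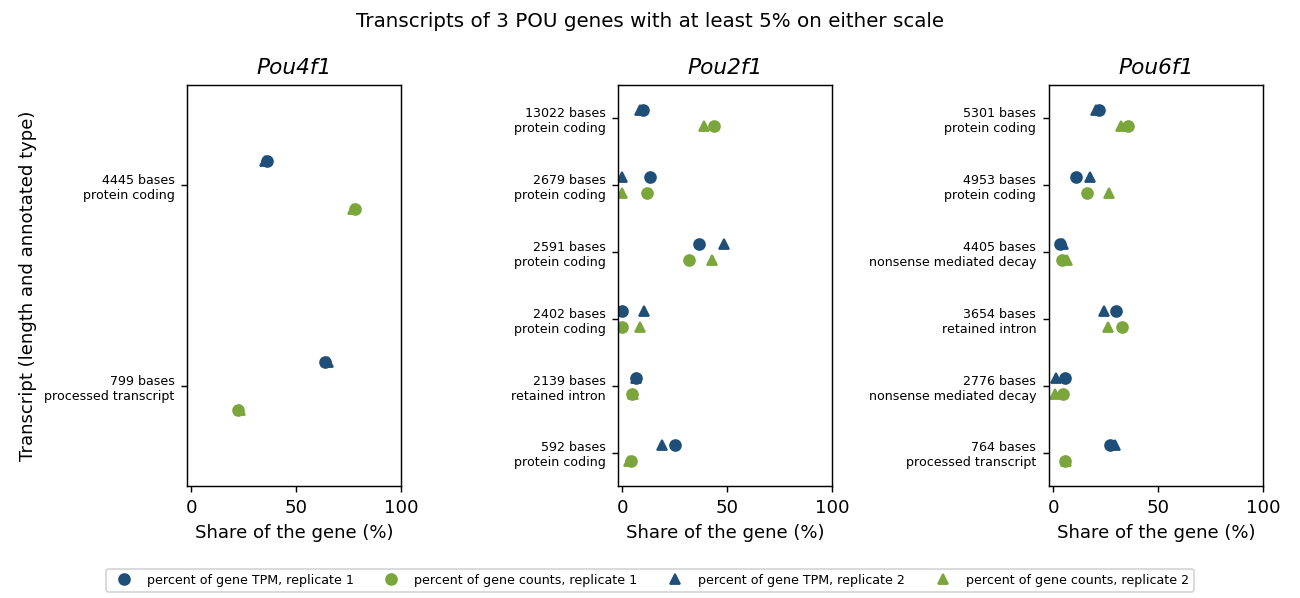
Transcripts of Pou4f1, Pou2f1 and Pou6f1 with at least 5% of the gene on either scale, ordered by length, with the share of gene TPM in blue and of expected counts in green (circles, replicate 1; triangles, replicate 2). The 799-base transcript of Pou4f1 took 63.8% and 65.2% of TPM but 22.1% and 23.2% of counts.

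Set among all 15 POU genes of the mouse annotation, which together held 174.1 TPM in replicate 1 and 197.8 TPM in replicate 2, the classes changed places with the scale. By gene TPM class IV led with 39.4 ± 2.04% of the sum (SD, n = 2), class III followed with 28.5 ± 1.88% and class II with 27.1 ± 0.140%. By protein-coding transcripts class III led with 40.0 ± 1.90%, before class II with 34.3 ± 1.32% and class IV with 22.0 ± 0.733%. Short models weigh on this scale too. In class II, coding fragments of 592 bases (Pou2f1) and 609 bases (Pou2f2) held means of 4.675 and 9.415 TPM. They had 3.79% and 8.75% of the counts of their genes. How far the class II share rests on them was not tested. By expected counts class III again led with 47.4 ± 1.37%, against 26.7 ± 1.60% for class IV and 20.7 ± 0.0891% for class II. Class VI stayed between 3.08% and 5.01% by mean. On each scale the leading class was the same in both libraries. Classes II and III could not be ordered by gene TPM, since class III held 29.8% against 27.0% in replicate 1, and 27.1% against 27.2% in replicate 2.

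**Figure D3:**
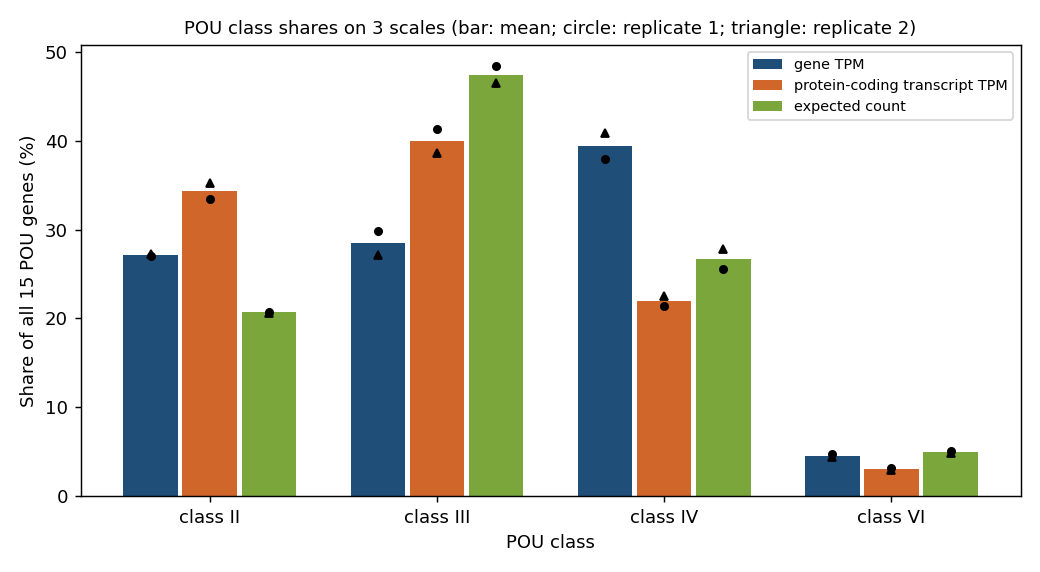
Share of the summed level of 15 POU genes held by classes II, III, IV and VI on 3 scales. Bars are means of 2 libraries, circles replicate 1 and triangles replicate 2. Class IV leads only in gene TPM, with 39.4%, and class III leads in protein-coding transcript TPM and in counts, with 40.0% and 47.4%.

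Of the 6 POU genes that are not members, Pou2f2, for Oct2 of B cells and neurons, was high. It held 26.2 TPM in replicate 1 and 32.0 TPM in replicate 2 (29.1 ± 4.15), above every member but Pou4f1 by gene TPM and above every member by mean protein-coding transcript TPM, at 23.2 and 28.8 TPM. On the second scale its values overlapped those of Pou4f1 and Pou3f2. A coding fragment of 609 bases held 7.86 and 10.97 TPM of it in replicates 1 and 2. That came from 69.74 and 100.46 counts, or 7.9% and 9.6% of the gene, so the rank of Pou2f2 also leans on a short model. Pou5f2 held 0.71 TPM in replicate 1 and 0.82 TPM in replicate 2. The pluripotency gene Pou5f1 had 1 count in replicate 1 and 0 in replicate 2, the pituitary gene Pou1f1 had 0 and 1, and Pou2f3 had 0 in both.

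Known partners and targets were present at very different levels. Of 10 genes listed for class III, all were detected. Fabp7, a brain fatty acid binding protein of radial glia, held 726.1 TPM in replicate 1 and 744.8 TPM in replicate 2. Sox11 held 458.6 and 476.4 TPM, Sox4 131.0 and 128.3 TPM, and the lowest, Sox1, 1.74 and 1.49 TPM. The SOX factor most often named as a class III partner, Sox2, held 22.5 TPM in replicate 1 and 26.2 TPM in replicate 2 (this gene was chosen after its values were seen). Its mean, 24.4 ± 2.64 TPM, lay beside that of Pou3f2.

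Of 11 genes listed for class IV, 8 were detected. The highest was Ewsr1, an RNA-binding protein found in most cells, at 350.3 and 362.2 TPM in replicates 1 and 2. Isl1, the LIM homeodomain factor of sensory and motor neurons, held 86.0 and 109.3 TPM, and Neurod4, a neurogenic factor, 41.0 and 46.9 TPM. The retinal or hair-cell genes Atoh7, Gfi1 and Eomes of that list were near or at 0: Atoh7 had 3 and 2 counts, and the others 0 counts in both libraries. Atoh1, also a hair-cell gene of that list, went the other way (it was named after its values were seen). It held 12.05 TPM in replicate 1 and 13.61 TPM in replicate 2, from 417 and 486 counts. The genes above the filter were lower in replicate 1 in 8 of 8 cases, by a small median log2 ratio of -0.14. Of all 17219 genes above the filter, 8542 were lower in replicate 1 and 8677 higher.

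At the members the libraries differed by about as much as at genes in general. The ratio of replicate 1 over replicate 2 was taken on counts scaled by edgeR's TMM factors, among 17219 genes with at least 10 counts in 1 library. With 1 library on each side it compares these pools only, and no test was made. Past 1.5-fold, 5.95% of these genes were higher in replicate 1 and 4.87% were higher in replicate 2, and 0 of 9 members were in either direction. Among genes with at least 50 counts in 1 library, as all members have, only 3.15% passed in either direction. The median size of the log2 ratio was 0.13 for the members, 0.12 for all genes and 0.11 for protein-coding genes.

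Exact 95% intervals, which cover counting error only, did not include 0 for 3 of 9 members. Such intervals were not computed for other genes, so whether this share is unusual cannot be said. Pou4f1 had a log2 ratio of -0.23 (-0.31 to -0.15), lower in replicate 1, and Pou3f2 had -0.13 (-0.22 to -0.05). Pou3f4 had 0.29 (0.07 to 0.52), higher in replicate 1. Scaling to spike-in totals, which moved the median of all genes to -0.20, gave -0.43 for Pou4f1, -0.33 for Pou3f2 and 0.09 for Pou3f4, so which intervals include 0 depends on the scaling. The low-count genes Pou4f2 and Pou4f3 had log2 ratios of 0.33 (-0.03 to 0.70) and -0.26 (-0.70 to 0.16), not separable from 0 at this depth. Pou2f1, Pou3f1, Pou3f3 and Pou6f1 had log2 ratios between -0.06 and 0.08.

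**Figure D4:**
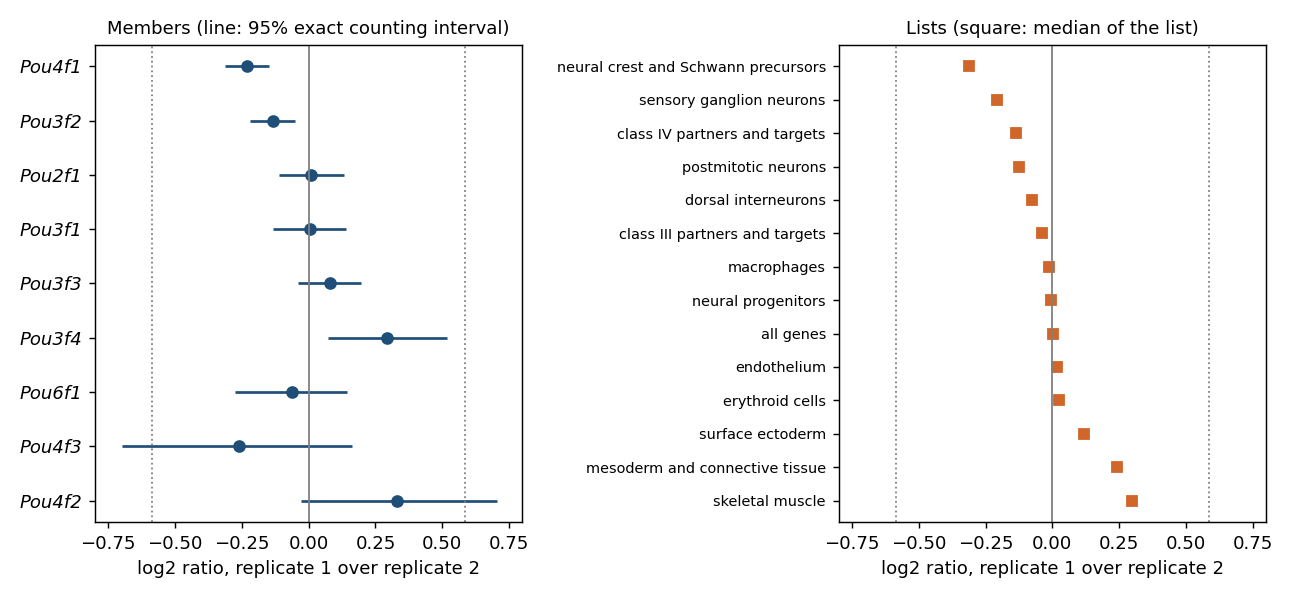
Log2 ratio of replicate 1 over replicate 2. Left, each member with its exact 95% counting interval. Right, the median of each gene list and of all genes. Dotted lines mark 1.5-fold. Pou4f1 at -0.23 and the sensory ganglion list at -0.21 lie on the replicate 2 side, and the muscle list at 0.30 lies on the replicate 1 side.

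Markers of cell types moved along with some of these ratios. For comparison with the counts below, 8542 of all 17219 genes were lower in replicate 1 and 8677 higher. The 15 markers of postmitotic neurons had sums of 3004 TPM for replicate 1 and 3470 TPM for replicate 2, and 15 of 15 were lower in replicate 1 (median log2 ratio -0.13). The highest were Tubb3, a neuronal tubulin, at 679.0 and 801.7 TPM, and the neuronal cytoskeletal genes Nefl and Stmn2 at means of 354.2 and 342.8 TPM. Rbfox3, of mature neurons, was lowest with a mean of 12.5 TPM. The neural progenitor list, led by Vim, Fabp7 and Top2a and with Sox1 lowest, summed to 2594 and 2692 TPM and split 7 to 7 (median log2 ratio -0.01).

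Genes listed as sensory ganglion markers were present in these libraries, whose labels name neural tube only. Which cells supplied their RNA was not tested. Of 18 listed, 17 matched an identifier (all but Drgx), and 13 of them were detected. Their sum was 259.3 TPM in replicate 1 and 321.5 TPM in replicate 2, with 15 of 17 lower in replicate 1 and a median log2 ratio of -0.21. Isl1, which is also a factor of motor neurons, held 86.0 and 109.3 TPM of these sums. After Isl1, the highest were the neurofilament-type gene Prph at 28.1 and 38.5 TPM and the neurogenic factor Neurog1 at 29.4 and 35.4 TPM. Tlx1 and Scn10a, a sodium channel of mature pain-sensing neurons, were lowest, at means of 0.395 TPM each. Pou4f1 differed between the pools in the same direction and by about as much as the median of this list. Whether ganglion or neural tube cells supplied its RNA was not tested.

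The dorsal interneuron list, which shares Isl1 and Tlx3 with the ganglion list, was detected whole, at sums of 190.1 and 225.0 TPM (median log2 ratio -0.08). Isl1, Lhx1 and Lhx5 led, the last 2 with means of 34.9 and 24.7 TPM, and Lmx1b was lowest at 1.32 TPM. Neural crest and Schwann precursor markers summed to 208.9 and 248.2 TPM, with 8 of 8 lower in replicate 1 and a median log2 ratio of -0.31. Ednrb and Cdh6, with means of 125.2 and 25.9 TPM, were among the highest of them. Their part in the ratio of Pou4f1 was not tested.

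Markers of mesoderm, skeletal muscle and surface ectoderm ran the other way. Mesoderm and connective tissue genes, led by Col3a1, Col2a1 and Col1a2 and with Tbx18 lowest, had sums of 842.6 TPM for replicate 1 and 761.6 TPM for replicate 2 (10 of 11 higher in replicate 1, median log2 ratio 0.24). Skeletal muscle genes, led by Actc1, Acta1 and Mylpf and with Myod1 lowest, summed to 489.1 and 405.4 TPM (8 of 8 higher in replicate 1, median 0.30). Surface ectoderm genes, led by Perp, Krt8 and Epcam and with Cdh1 lowest, summed to 49.3 and 46.0 TPM (6 of 6 higher in replicate 1, median 0.12).

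Endothelial genes (Egfl7, Plvap and Cldn5 highest, Tek lowest) summed to 212.5 and 222.6 TPM, with a median log2 ratio of 0.02. Macrophage genes (C1qb, Tyrobp and Fcer1g highest, Ptprc lowest) summed to 66.5 and 65.4 TPM, with a median of -0.01. Erythroid genes had sums of 10414 TPM for replicate 1 and 10463 TPM for replicate 2, with a median of 0.03. They were led by the globin genes Hbb-y, Hba-x and Hba-a1, and Klf1 was lowest. The median over all 17219 genes was 0.00. No member is a marker on any of these lists, and the part of tissue makeup in the ratio of Pou3f4 was not tested.

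The members' loci held little else on the same bases. GENCODE lists 64 other genes that overlap a member or lie within 100 kb, of which 56 were analysed here and 20 were detected. Only 5 overlap a member. Those at Pou2f1 are Cd247 on the opposite strand, with 29.26 counts in replicate 1 and 12.31 in replicate 2, and the pseudogene Gm17976, with 18 and 8 counts. The others are Gm2164 at Pou3f1, with 0.19 and 0.18 TPM, AC122898.1 at Pou3f3, with 0.33 and 0.55 TPM, and Gm27209 at Pou6f1, with 0.07 and 0.21 TPM. Each had far fewer counts than the member, at most 29.26 in a library. No source used here says whether the counting used strand, so reads of genes on opposite strands may be mixed.

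Pou3f3 lay beside a noncoding gene of high level. Pantr1, a long noncoding RNA gene on the opposite strand (chr1:42590782-42694842), starts 926 bases before Pou3f3. It held 225.6 TPM in replicate 1 and 235.2 TPM in replicate 2 (230.4 ± 6.78). That was 24.4 and 26.1 times the TPM of Pou3f3, but 1.69 and 1.84 times its counts, as its mean transcript length was 604.3 and 613.5 bases. Pantr2, also on the opposite strand and 17686 bases on from the start of Pou3f3, held 10.2 and 9.37 TPM, near the TPM of Pou3f3, but only 138 and 136 counts against 1175 and 1182.

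**Figure D5:**
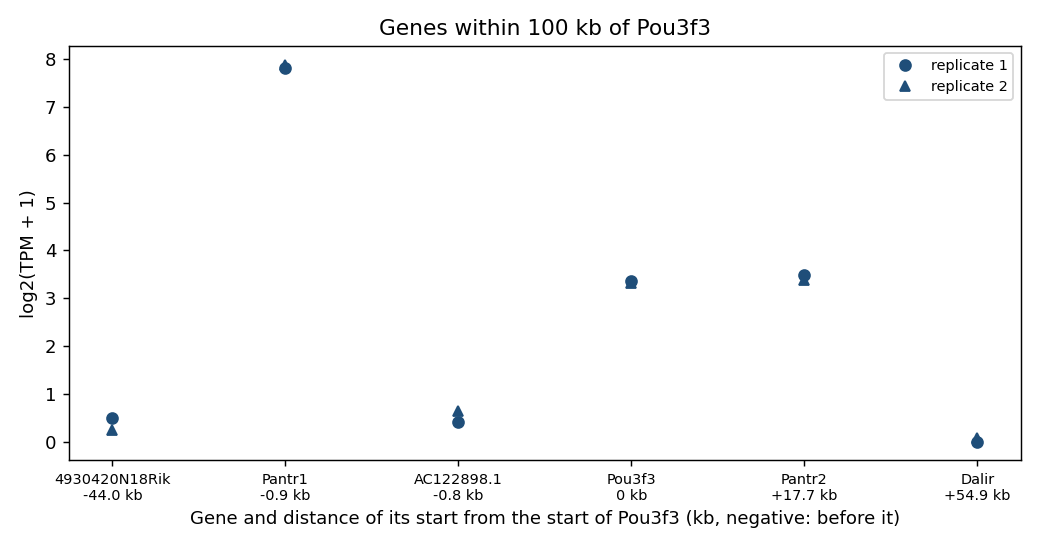
Log2(TPM + 1) of Pou3f3 and the annotated genes within 100 kb, set in order of the distance of their starts from the start of Pou3f3, with circles for replicate 1 and triangles for replicate 2. Pantr1, 926 bases before Pou3f3, stands highest with 225.6 and 235.2 TPM, and the libraries nearly coincide.

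The 250 bases before Pou3f3 are shown because they lie between its start and that of Pantr1. Capitals mark CCAAT, searched on both strands (a match on the other strand reads ATTGG). The promoter of Pou3f2 is set beside it.
Pou3f3 promoter, chr1:42695518-42695767, plus strand: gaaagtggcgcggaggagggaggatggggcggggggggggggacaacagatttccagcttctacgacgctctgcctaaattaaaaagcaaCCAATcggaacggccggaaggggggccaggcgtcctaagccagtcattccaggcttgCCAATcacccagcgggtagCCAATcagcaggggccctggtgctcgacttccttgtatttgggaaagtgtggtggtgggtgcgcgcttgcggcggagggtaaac
Pou3f2 promoter, chr4:22488367-22488616, minus strand: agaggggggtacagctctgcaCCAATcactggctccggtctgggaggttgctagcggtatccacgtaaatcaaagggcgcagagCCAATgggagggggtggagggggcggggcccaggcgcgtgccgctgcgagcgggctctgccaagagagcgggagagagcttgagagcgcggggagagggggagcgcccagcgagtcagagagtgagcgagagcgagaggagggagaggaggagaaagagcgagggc

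Both sequences come from RefSeq (GRCm38.p6), in which 7 of 9 members matched a promoter, all but Pou3f1 and Pou4f3. The class III gene Pou3f1 was therefore not searched. CCAAT was chosen after these sequences were seen. It was found in the 250 bases before the start of Pou3f2, Pou3f3 and Pou3f4, with 2, 3 and 3 matches, and in none of the other 4 genes that matched. Of all 32851 promoters, 33.9% held it. The octamer ATGCAAAT (or ATTTGCAT on the other strand) was in 1.60% of all promoters and in 0 of 7 members, which says only that these letters are not in this window.

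At the other loci, the highest neighbours were protein-coding genes. Rbmxl1 near Pou4f2 held 259.7 and 267.7 TPM in replicates 1 and 2, with Slc10a7 next at 4.54 and 4.23 TPM. Dazap2 near Pou6f1 held 212.2 and 224.7 TPM, before Letmd1 at 32.5 and 35.3 TPM, and the splicing factor gene Sf3a3 near Pou3f1 held 152.4 and 155.1 TPM, before Utp11 at 42.0 and 44.9 TPM. Near Pou2f1, Creg1 held 28.3 and 30.5 TPM and Dusp27 2.79 and 3.74 TPM. Rnf219 near Pou4f1 held 28.7 and 34.1 TPM, Rbm27 near Pou4f3 15.1 and 14.3 TPM, and Fbxl4 near Pou3f2 7.81 and 8.10 TPM.

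The members also differed in structure in ways that bear on these scales. The class III genes had 1 exon each, Pou4f2 and Pou4f3 had 2, Pou4f1 had 3, and the leading coding transcripts of Pou6f1 and Pou2f1 had 6 and 16. Coding bases made up 20.1% of the Pou3f3 transcript and 23.9% of that of Pou3f2, against 89.0% of the leading Pou2f1 transcript. GC content, from the GENCODE transcripts, ran from 44.4% in Pou3f2 to 63.9% in Pou3f1, so the extremes of the set lay within class III. The authors' posterior SD of the gene count was 0 in both libraries for 6 members, all but Pou2f1, Pou3f1 and Pou6f1. One unit of TPM stood for 35.1 counts at Pou4f1 and 127.2 at Pou3f3 in replicate 1, and for 35.3 and 131.2 counts in replicate 2.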

How the data were processed

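Per the deposited file descriptions, the authors estimated reads on mm10 with GENCODE M4 for genes and transcripts and deposited both expected counts and TPM. They also deposited the percent of each gene's TPM held by each transcript. Deposited TPM values total 1000000 with spike-ins, whose share was 13.2% in replicate 1 and 11.8% in replicate 2. No source used here names the aligner or quantifier. The labels' protocols name Ambion mirVana for extraction and a SmartSeq document, under the title total RNA-seq; which describes the libraries is not settled.

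Identifiers without version were named from GENCODE M21 (GRCm38), with 42462 of 43346 matched. Spike-ins (97) and entries that carry only a number (26248) were not counted as genes. The libraries summed to 27638068 expected counts (replicate 1) and 29166901 (replicate 2). On rounded counts, TMM-scaled log2 ratios with a prior count of 2 were computed with edgeR 4.0.16 (R 4.3.3) and checked on simulated data. Intervals are exact (Clopper-Pearson, 95%) and cover counting error only, since reads carry no molecular identifiers. DESeq2 1.42.0 gave alternative size factors. Protein-coding levels sum the TPM of transcripts typed so in M21. The spread is that of 2 pools.

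The text names all members, the 3 highest and the lowest gene of each of 14 lists, every overlapping gene and the 2 highest detected neighbours of each member. A few genes within that rule are not reported. The members and lists were chosen with earlier results of these data known.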

Additional observations from a re-analysis of the deposited data

How the results depend on the processing

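All 9 members stayed detected at minimums of 0.5 and 2 TPM, at 10 expected counts, in posterior mean TPM and without spike-ins. They also did in protein-coding transcripts (an alternative chosen after seeing the data) and without either replicate. The number of members past 1.5-fold was 0 under every filter and scaling run. Over all genes, 22.0% passed with at least 1 count in 1 library and 3.15% with at least 50. By DESeq2 size factors 10.8% passed, and by spike-in totals 12.1%. The median member level was 9.13 TPM, 8.84 by posterior mean TPM, 10.4 when TPM was rescaled without spike-ins and numbered entries, and 9.01 to 9.24 without a replicate. By expected counts the class shares were 20.7% (II), 47.4% (III), 26.7% (IV) and 5.01% (VI). By protein-coding transcripts they were 34.3%, 40.0%, 22.0% and 3.08% in the same order. By posterior mean TPM, class II took 28.6% and class VI 5.05%. Without a replicate they ranged over 27.0% to 27.2%, 27.1% to 29.8%, 38.0% to 40.8% and 4.36% to 4.79%. By posterior mean percent, the leader of Pou2f1 by mean share held 18.5%, and the 592-base fragment led instead in both replicates. The 764-base processed transcript of Pou6f1 held 22.9% by mean, with 21.8% in replicate 1 and 24.1% in replicate 2. The retained-intron transcript of Pou6f1 held 24.5% and 21.6%, so the leader differed between the libraries. It also differed by the main estimate, at 27.0% and 29.6% against 30.0% and 24.1%. Without a replicate, the leaders by mean share held 63.8% to 65.2% of Pou4f1, 36.7% to 48.4% of Pou2f1 and 27.0% to 29.6% of Pou6f1. Scaling to spike-in totals gave a median member log2 ratio of -0.20 and moved the median of all genes to -0.20 as well; Pou2f1, Pou3f1 and Pou3f3 then lay below 0, Pou4f1 moved to -0.43 and Pou3f4 to 0.09. Posterior mean TPM placed Pou2f1 (mean 24.6) above Pou3f2 (22.6). The cause of the differences between the main and posterior mean estimates was not tested. No paired analysis was possible because the series holds 1 group. A paired permutation test of 2 libraries could not go below 0.5. Counts of 83 to 139 limit Pou4f2 and Pou4f3.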
